A study of Gallus gallus with 12 samples.

Results

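The expression of 3 transcripts that the study lists as FAS, ADAMTS2 and SH2D4D was followed in the late embryonic chick lung over 4 stages on 12 microarrays. They are ENSGALT00000039918 (FAS), ENSGALT00000009653 (ADAMTS2) and ENSGALT00000003735 (SH2D4D), 3 of the 21390 transcripts in the deposited table. That table holds Ensembl transcript identifiers without gene names. Each name rests on 1 row alone carrying both the ratio of E18 to E14 and the p across the stages that the study prints for the gene, and the names are no surer than that. Those values chose the transcripts, and the differences between stages are therefore given below as a description, with standard errors and without tests. The arrays measured total RNA of whole lung, labelled after conversion to cDNA, from untreated white leghorn embryos at embryonic days 14, 15, 16 and 18 (E14, E15, E16 and E18), with 3 biological replicates at each stage. Whether a replicate was 1 embryo or a pool is not given in the sources used here. Identifiers could not be paired with cell type markers, so the tissue label was not checked against them.

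FAS is a cell surface receptor of the tumour necrosis factor receptor superfamily. When FAS ligand binds it in mammals, the adaptor FADD and caspase 8 are recruited and the cell can enter apoptosis. ADAMTS2 is a secreted metalloproteinase that, in mammals, cuts the amino-terminal propeptide from fibrillar procollagens before collagen fibrils assemble, and its loss gives fragile skin in humans and cattle. SH2D4D is written as the study prints it. It is not a symbol of the RefSeq gene table for the assembly GRCg7b, which lists SH2D4A and SH2D4B as well as FAS and ADAMTS2, and no role is given to it here. In the late chick embryo the parabronchi of the lung form atria, then infundibula, and then the air capillaries that interlace with blood capillaries to make the blood-gas barrier. In whole lung RNA, a change in the number of cells of 1 type and a change in the RNA of each cell cannot be told apart.

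Of the 3 neighbouring intervals, the largest step lay between E16 and E18 for FAS and between E15 and E16 for ADAMTS2 and SH2D4D. The FAS arrays of E14, E15 and E16 overlapped, and FAS was 2.46-fold higher at E18 than at E16. ADAMTS2 was higher at E15 than at E14 and higher again at E16, 3.03-fold above E14, and its arrays at E16 and E18 overlapped. SH2D4D was higher at every stage than at the one before, with its greatest difference of 3.29-fold between E15 and E16. Of the E14 to E18 difference on the log2 scale, 6.53% was reached by E16 for FAS, 84.5% for ADAMTS2 and 73.1% for SH2D4D. Whether the time courses differed from each other was not tested, since the same arrays had chosen the transcripts.

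**Figure D1:**
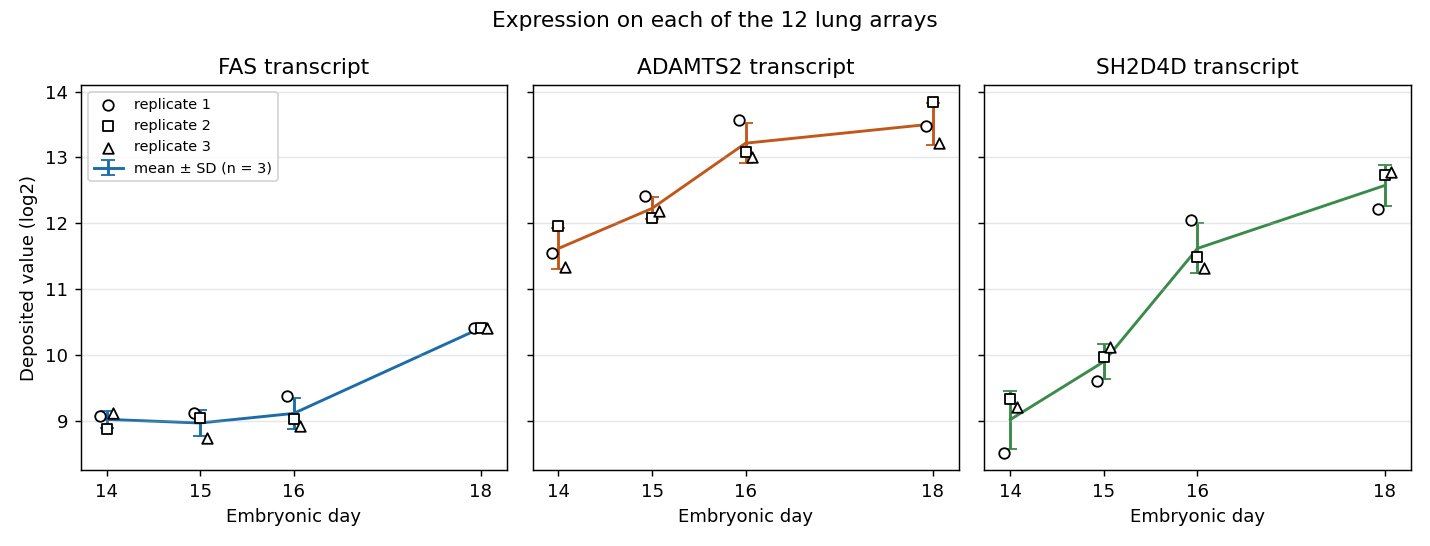
Deposited log2 value (y axis) against embryonic day (x axis, to scale) for the FAS, ADAMTS2 and SH2D4D transcripts. Open symbols are single arrays by replicate number and lines join the stage means with SD (n = 3). FAS stays between 8.74 and 9.38 up to E16 and lies at 10.4 on each E18 array, whereas ADAMTS2 and SH2D4D are already higher at E15. Heights are not comparable between panels, since the probes differ.

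A narrower spread of values set 4 arrays apart, E15 replicate 3, E16 replicate 1 and E18 replicates 2 and 3, and these touch each step below. Their SD over all transcripts was between 2.22 and 2.51, against 2.58 to 2.62 on the other 8. The random-sequence control, the only measure of background in the table, read between 4.40 and 5.17. Every array value of the 3 transcripts lay at least 3.43 log2 units above the control of the same array. Replicates lay farther apart at E18, where the median SD of a transcript was 0.528, against 0.140 at E14, 0.216 at E15 and 0.168 at E16.

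The FAS transcript read 9.08, 8.87 and 9.12 on replicates 1, 2 and 3 at E14. At E15 it read 9.11, 9.04 and 8.74, and at E16 it read 9.38, 9.03 and 8.92. These 9 arrays formed 1 overlapping range over 3 stages, in which E15 replicate 3 was lowest and E16 replicate 1 highest. At E18 the values were 10.41, 10.42 and 10.40. The lowest E18 array stood 1.02 log2 units above the highest array of E16, more than the 0.64 log2 units that parted the highest from the lowest of all earlier arrays. As means, FAS was at 9.02 ± 0.13 (SD, n = 3) at E14, 8.97 ± 0.20 at E15, 9.11 ± 0.24 at E16 and 10.41 ± 0.0074 at E18. Ordered by level, E15, E14 and E16 did not differ beyond their spread, and E18 stood apart from all of them.

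For FAS the later minus the earlier mean was -0.06 (standard error 0.16) from E14 to E15 and 0.15 (0.16) from E15 to E16, on the log2 scale. From E16 to E18 it was 1.30 (0.16). The last interval covers 2 days, so this is on average 0.65 log2 units per day, whereas E14 to E16, also 2 days, gave 0.05 per day. No stage between E16 and E18 was sampled, so how a difference was divided over these 2 days is not known. The 3 arrays at E18 spanned only 0.014 log2 units. Their SD was smaller than that of all but 8 of the 21390 transcripts at this stage, although E18 replicates 2 and 3 were the arrays of narrowest spread. A small spread between replicates lowers the p by which FAS was chosen, so the closeness of these values is a description. It also rests on the deposited scale. The medians over all transcripts on E18 replicates 1, 2 and 3 were 10.72, 10.59 and 10.56, farther apart than the FAS values. The step from E16 to E18 was 1.29 on E18 replicate 1 alone, the array of that stage with a spread like the earlier ones.

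The ADAMTS2 transcript read 11.56, 11.96 and 11.34 on replicates 1 to 3 at E14. At E15 the values were 12.41, 12.08 and 12.19, and at E16 they were 13.56, 13.08 and 13.00. Each E15 array thus stood above each E14 array, by a margin of 0.12 log2 units, and each E16 array above each E15 array, by 0.59. At E18 the values were 13.48, 13.84 and 13.21, and the highest E16 array lay above both E18 replicates 1 and 3. The means were 11.62 ± 0.31 (SD, n = 3) at E14, 12.23 ± 0.17 at E15, 13.22 ± 0.30 at E16 and 13.51 ± 0.31 at E18. In the order of the levels, only E16 and E18 did not differ beyond their spread.

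The ADAMTS2 step was 0.61 (standard error 0.23) log2 units from E14 to E15 and 0.99 (0.23) over the following day, and then 0.29 (0.23) from E16 to E18. As ratios these were 1.52-fold, 1.99-fold and 1.22-fold. Per day, the transcript thus gained 0.61, 0.99 and 0.15 log2 units in the 3 intervals, the last being an average over 2 days. Of its E14 to E18 difference of 1.89 log2 units, or 3.71-fold, 52.4% lay in the single day between E15 and E16. The overlap of E16 and E18 came from 1 array. Without E16 replicate 1, one of the 4 arrays of narrower spread, the E16 and E18 arrays no longer overlapped and the step was 0.47. This was the only 1 of 17 other settings without overlap, and leaving an array out can only lessen overlap. Without E18 replicate 2, also one of the 4, the step was 0.13 and 92.5% of the difference was reached by E16.

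The SH2D4D transcript had the widest range of the 3. It read 8.51, 9.33 and 9.21 on replicates 1 to 3 at E14 and 9.61, 9.97 and 10.12 at E15. At E16 the values were 12.04, 11.49 and 11.31, and at E18 they were 12.21, 12.74 and 12.77. No 2 stages overlapped, and the margin between the nearest arrays was 0.28 log2 units in the first interval, 1.20 in the second and 0.17 in the last. The means were 9.02 ± 0.44 (SD, n = 3) at E14, 9.90 ± 0.26 at E15, 11.62 ± 0.38 at E16 and 12.57 ± 0.31 at E18. The narrow margin at the end lay between E16 replicate 1 and E18 replicate 1.

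The SH2D4D step was 0.88 (standard error 0.28) log2 units from E14 to E15 and 1.72 (0.28) over the following day, and then 0.96 (0.28) from E16 to E18. These were 1.84-fold, 3.29-fold and 1.94-fold. Because the last interval is longer, the gain per day was 0.88, 1.72 and 0.48 log2 units, the last being an average over 2 days with no array between them. From E14 to E18 the transcript differed by 3.56 log2 units, or 11.8-fold, and 48.4% of this lay between E15 and E16. The step after E16 moved with the arrays used and with their scaling. With 1 array left out it ran from 0.80, without E16 replicate 3, to 1.17, without E16 replicate 1. Without E18 replicate 1 it was 1.14, and with cyclic loess normalization of all arrays it was 1.38. It was 0.59 with E18 replicate 1 alone at that stage, which puts 81.4% of the smaller E14 to E18 difference of 3.19 before E16. With E16 replicate 1 and E15 replicate 3 also left out, so that none of the 4 arrays of narrow spread remained, it was 0.81.

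**Figure D2:**
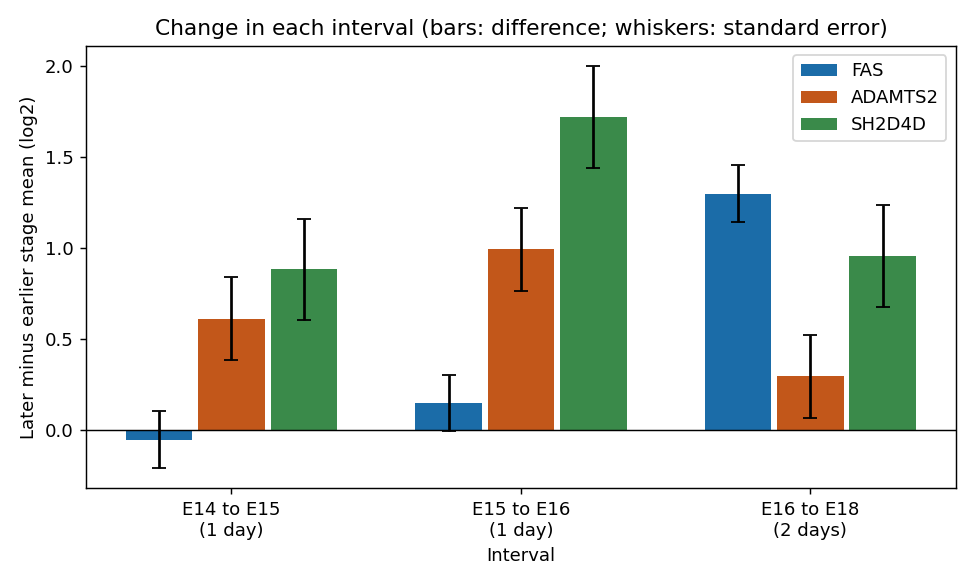
Later minus earlier stage mean on the log2 scale (y axis) in the 3 neighbouring intervals (x axis) for FAS, ADAMTS2 and SH2D4D, with the standard error from the limma fit as whiskers. FAS has its bar of 1.30 in the last interval, while ADAMTS2 and SH2D4D have theirs of 0.99 and 1.72 from E15 to E16.

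Neighbouring intervals share the arrays of 1 stage, so a high or low array moves the steps on its sides in opposite directions. E16 replicate 1 was the highest E16 array for all 3 transcripts and E16 replicate 3 the lowest. Over all transcripts, E16 replicate 1 was the highest array of its stage for 32.0% and E16 replicate 3 the lowest for 36.1%. At the other stages the 3 transcripts did not order the replicates alike. E14 replicate 2 was the highest of its stage for ADAMTS2 and SH2D4D and the lowest for FAS, and E18 replicate 1 was the lowest for SH2D4D but not for the other two. Without E16 replicate 1 the FAS step from E15 to E16 was 0.01 and that from E16 to E18 was 1.43.

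**Figure D3:**
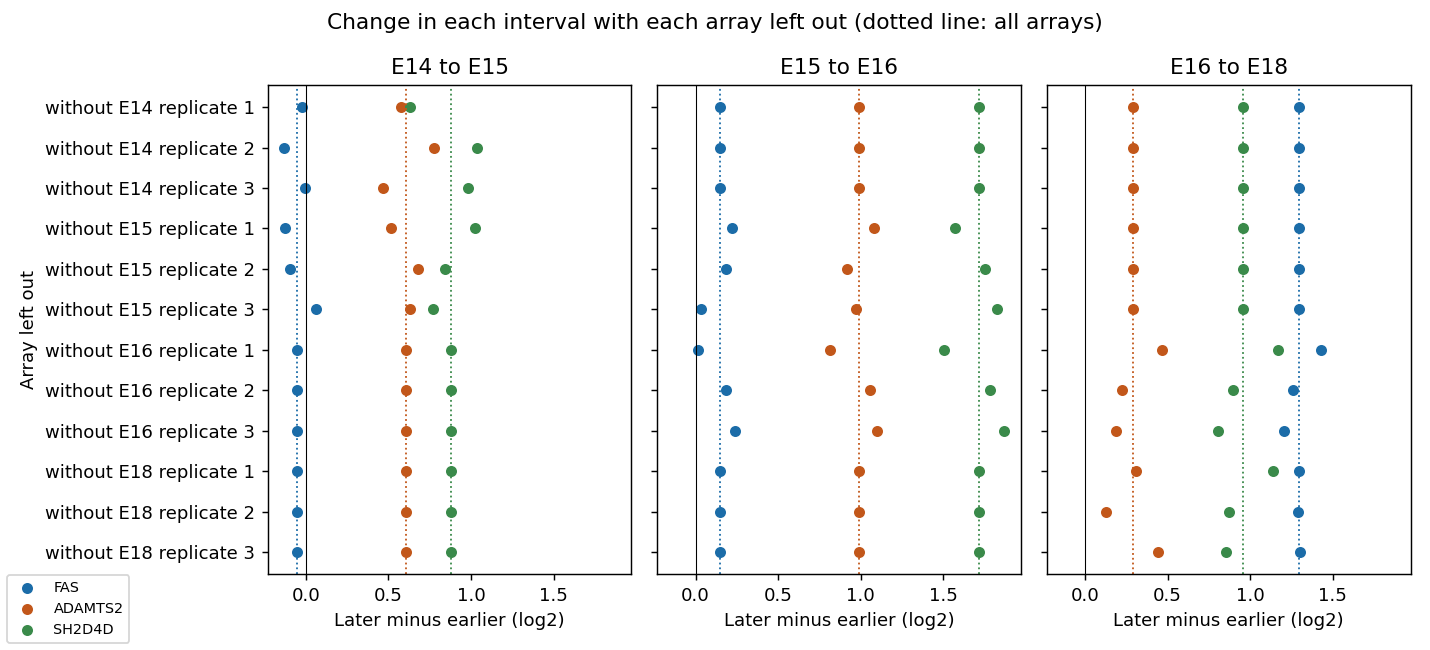
Later minus earlier stage mean in log2 units (x axis) for the 3 neighbouring intervals (panels) with each of the 12 arrays left out in turn (y axis). Points are FAS, ADAMTS2 and SH2D4D, and dotted lines mark the values with all arrays. From E16 to E18 FAS stays between 1.20 and 1.43 and ADAMTS2 between 0.13 and 0.47, and from E15 to E16 SH2D4D stays between 1.51 and 1.87.

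Set against all transcripts on the same arrays, the steps stood as follows. From E14 to E15, 3.7% of the 21390 transcripts had each later array above each earlier one, as did 2 of the 3 transcripts, ADAMTS2 and SH2D4D. From E15 to E16 the share was 7.82%, and the same 2 transcripts were among them. From E16 to E18 it was 7.12%, with FAS and SH2D4D among them. Over 2 days from E14 to E16 it was 11.6%, with ADAMTS2 and SH2D4D, and from E15 to E18 it was 7.8%, with all 3. From E14 to E18, the contrast by which the transcripts were chosen, it was 15.7%, again with all 3. Because the transcripts were chosen partly on the p across all 4 stages, nothing is read from these counts.

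The place of each step by size among all transcripts is likewise a description, since the values that chose the transcripts contain these steps. From E15 to E16, 100 transcripts (0.468%) had a larger positive step than SH2D4D, and 328 (1.53%) a larger one than ADAMTS2. From E14 to E15 the shares were 3.77% and 6.73%. From E16 to E18, 10.6% of transcripts stood above FAS, 15.1% above SH2D4D and 27.5% above ADAMTS2. The spread of all steps was wider in this last interval, with quartiles at -0.47 and 0.39 against -0.17 and 0.13 from E15 to E16, so an equal step ranks lower there. The step of FAS from E14 to E15 was near the middle, with 54.3% of transcripts above it.

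**Figure D4:**
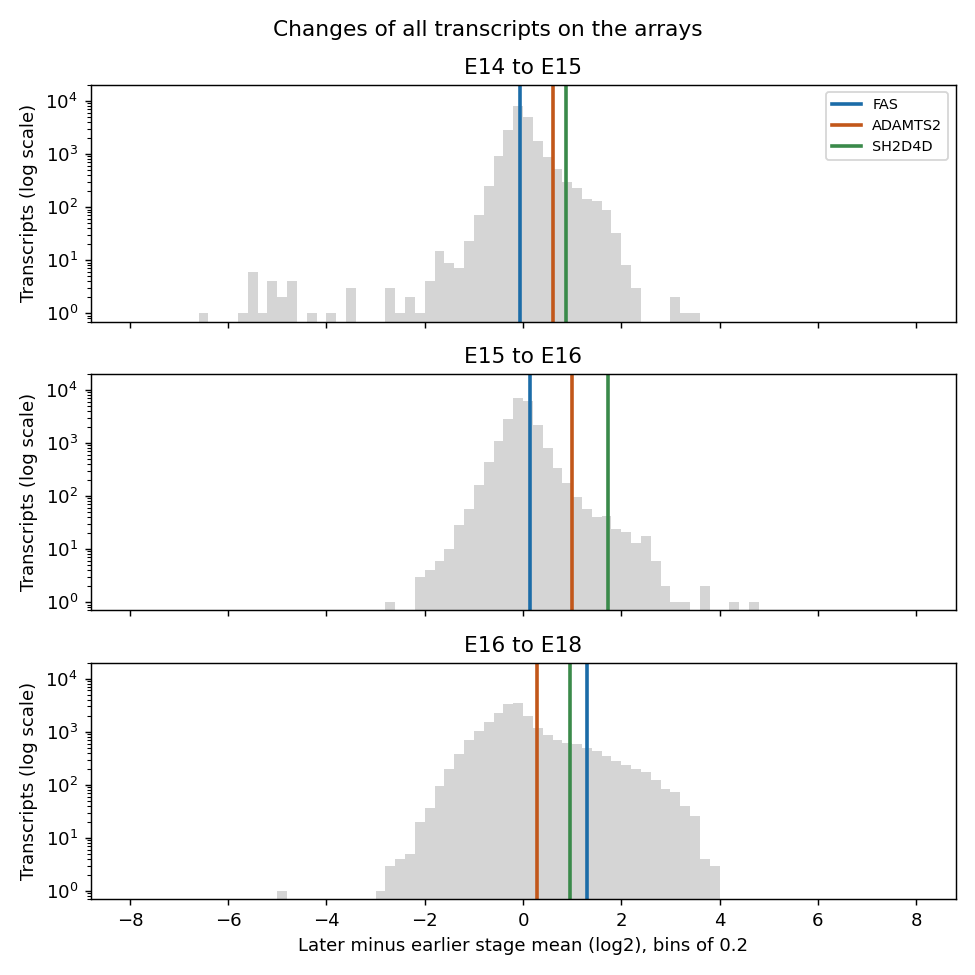
Number of transcripts (y axis, log scale) by later minus earlier stage mean in bins of log2 units (x axis) for the 3 neighbouring intervals, over all 21390 transcripts. Coloured lines mark FAS, ADAMTS2 and SH2D4D. FAS lies near the centre from E14 to E15 and somewhat right of it from E15 to E16, with 54.3% and 23.1% of transcripts beyond it. SH2D4D lies farther right in both panels, with 0.468% of transcripts beyond it from E15 to E16. In the lowest panel FAS is the rightmost of the 3.

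The median of all transcripts itself shifted, by -0.14 log2 units from E16 to E18 and by -0.17 from E14 to E18. Relative to that median, the step from E16 to E18 was 1.43 for FAS, 0.43 for ADAMTS2 and 1.09 for SH2D4D. After cyclic loess normalization, where the median was 0.01, they were 1.48, 0.52 and 1.37. From E14 to E16 the values relative to the median were 0.12 for FAS, 1.63 for ADAMTS2 and 2.63 for SH2D4D.

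The intervals in which each array of the later stage stood above each array of the earlier one give each transcript a pattern over the 3 neighbouring intervals. SH2D4D did so in all 3 intervals, a pattern held by 28 transcripts (0.131%). ADAMTS2 did so in the first and the second only, as did 76 transcripts (0.355%). Without E16 replicate 1, ADAMTS2 did so in the last as well. FAS did so in the last only, as did 1249 transcripts (5.84%). The transcripts matched in the same way to COL4A1 (ENSGALT00000027197) and COL4A2 (ENSGALT00000027208), the chains of the major type IV collagen of basement membranes, were among the 28. The ratio and the p across the stages, by which all of these were chosen, favour stages that do not overlap. Nothing is therefore read from the rarity of a pattern or from its being shared.

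In the share of the difference reached by E16, with all arrays as deposited, the type IV collagen transcripts lay between FAS on one side and ADAMTS2 and SH2D4D on the other. By E16, 61.3% of the E14 to E18 difference was reached for COL4A1 and 63.0% for COL4A2. The SH2D4D share was 73.1%, and 65.9% with cyclic loess normalization, a setting not run for the collagens. Their steps over the day from E15 to E16 were 0.50 (standard error 0.12) and 0.54 (0.12) log2 units. Over the 2 days from E16 to E18 they were 0.43 and 0.42, or on average 0.22 and 0.21 per day. ADAMTS2 and SH2D4D, at 0.99 and 1.72, had larger steps than both from E15 to E16, and FAS a smaller one. From E16 to E18 the steps of FAS and SH2D4D, 1.30 and 0.96, were larger than both. The step of ADAMTS2, 0.29 (standard error 0.23), lay below the collagen steps (0.12 each) by less than its standard error. The differences between transcripts were not tested, and the collagen steps were not rerun with arrays left out.

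**Figure D5:**
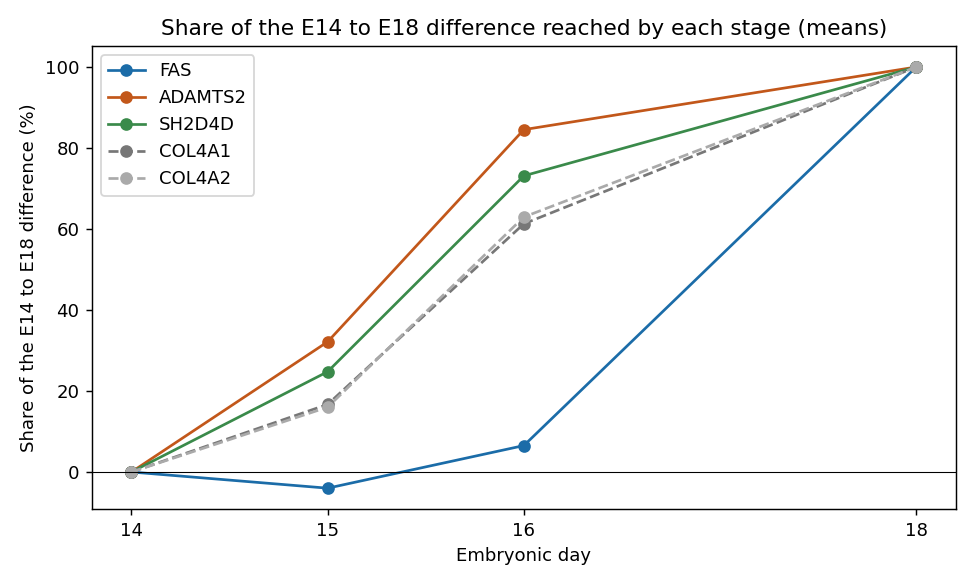
Share of the E14 to E18 difference of the log2 stage means reached by each stage (y axis, percent) against embryonic day (x axis, to scale) for FAS, ADAMTS2 and SH2D4D (solid) and COL4A1 and COL4A2 (dashed). By E16 the share is 6.53% for FAS, 61.3% and 63.0% for the collagen transcripts, 73.1% for SH2D4D and 84.5% for ADAMTS2. The ends are 0 and 100 by definition.

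Over the 12 arrays, as a description of profiles that share the stages and the array spread, ADAMTS2 and SH2D4D had a Pearson correlation of 0.948 with each other. FAS had one of 0.672 with ADAMTS2 and of 0.751 with SH2D4D. With FAS, COL4A1 reached 0.852 and COL4A2 0.840. Both were closer to ADAMTS2, at 0.935 and 0.942, and to SH2D4D, at 0.962 and 0.963. The transcript most like ADAMTS2 was ENSGALT00000003930, with a correlation of 0.989, and the same transcript was the one most like SH2D4D, at 0.973. Its stage means were 10.82 at E14, 11.58 at E15, 12.97 at E16 and 13.58 at E18. COL4A2 was the fifth most like SH2D4D, at 0.963. The transcript most like FAS was ENSGALT00000019112, at 0.976, with stage means of 10.25, 10.37, 10.57 and 11.67. In 13 other settings, with 1 array left out or by Spearman correlation, another transcript came first in 8 for FAS, in 6 for SH2D4D and in 1 for ADAMTS2.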

How the data were processed

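The authors made double-stranded cDNA from total RNA of 12 lung samples, had it labelled and hybridized to custom NimbleGen arrays, applied Robust Multi-array Analysis (RMA) to the scans and deposited log2 values, 1 per Ensembl transcript identifier and array. The number of probes per transcript, the Ensembl release and software versions are not given in the sources used here. RMA does not equalize the spread after probes are summarized, and the array spreads differed. The random-sequence control was left out of fits. All 12 columns were assigned to samples by their titles.

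One mean per stage was fitted to all 21390 transcripts with limma 3.58.1 in R 4.3.3 (8 residual degrees of freedom), which gave the steps and standard errors. Each standard error used a variance drawn toward that of all transcripts and held equal over the stages. Since the spread of replicates differed between stages, it is not the replicate error of a single interval. The median SD over all transcripts was largest at E18. FAS had its largest SD at E16 (0.24) and SH2D4D at E14 (0.44), and that of ADAMTS2 was 0.31 at both E14 and E18. No filter or further normalization was applied. For background counts, contrasts of neighbouring stages were tested with Benjamini-Hochberg adjustment at 0.05 over all transcripts. The fit was tested on simulated data with equal variance at all stages and no array effects. That test therefore does not cover the unequal spreads of these arrays. Plots used Python 3.11.15 and matplotlib 3.10.9. The number of arrays limits the precision.

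The members and lists were chosen with earlier results of these data known. The text names the 3 transcripts, COL4A1 and COL4A2 for comparison, and the 2 unnamed identifiers with the highest correlation with any member. Lists for the death receptor pathway, procollagen processing, SH2 domain adaptors and lung cell types were not used, because 0 of the identifiers occur in the RefSeq gene table. The alternatives comprised 3 scalings of the arrays (median centring, quantile normalization and cyclic loess), arrays left out, array SD as a covariate, the replicate number as a block, removal of the dimmest transcripts (the third with the lowest mean), robust variances with an intensity trend, a threshold of 0.01, only the 2 stages compared and Spearman correlation.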

Additional observations from a re-analysis of the deposited data

How the results depend on the processing

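Of 240 values of the 12 steps under other settings, 229 moved by less than the pooled SD of the transcript. Many of these could not move, so the count is no measure of stability. An array left out changes only steps that involve its stage, and the replicate block changes none. No step between stages whose arrays did not overlap changed direction, but leaving arrays out cannot reverse such a step. Only the 3 scalings and array SD as a covariate could have done so. With cyclic loess the E16 to E18 step was 1.49 for FAS and 1.38 for SH2D4D, and the E14 to E18 difference was 1.67 and 4.05. Without E18 replicates 2 and 3, with or without E15 replicate 3, the SH2D4D values were 0.59 and 3.19. Its E14 to E18 difference was 3.12 when array SD entered as a covariate. Without all 4 arrays of lowest SD, a setting chosen after seeing the data, the E15 to E16 step of FAS was -0.10 and the E14 to E18 difference of SH2D4D 3.19, while the E16 to E18 step of SH2D4D was 0.81. The share reached by E16 stayed between -3.10% and 13.3% for FAS, between 75.4% and 92.5% for ADAMTS2 and between 65.9% and 81.4% for SH2D4D.

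Counts over all transcripts moved more. Limma called 0 transcripts from E14 to E15 in every setting run. In the fit to all arrays as deposited, 202 of the 21390 transcripts had an unadjusted limma p under 0.05 in that interval. This is below the share of 0.05 that would arise if no transcript differed. The variance was held equal over the stages although replicates lay farther apart at E18, so 0 calls are not read as a lack of change. The same fit called 1 transcript from E15 to E16 and 70 in the last interval. From E15 to E16 the count was 10 with cyclic loess, 12 without E18 replicates 2 and 3, 2 also without E15 replicate 3, 15 with array SD as a covariate, 0 at 0.01 and 0 with only the 2 stages compared. In the same order the count from E16 to E18 was 244, 2, 9, 13, 4 and 0, and it was 149 without the third with the lowest mean. With 1 array left out the counts ran from 0 to 6 and from 3 to 9523. From E16 to E18 the count was 9523 without E18 replicate 1, 3 to 7 without E16 replicates 2 or 3 or E18 replicate 2, and 26 to 35 without any E14 array or E15 replicates 1 or 2. The cause was not tested.

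The number of transcripts whose later arrays were all higher was 791, 1672 and 1523 in the 3 intervals. Fewer arrays overlap less by construction, and with 1 left out it ran from 791 to 2043 (at least 1394 without any array of E14 or E15), from 1672 to 2923 (over 1.5 times without E15 replicates 2 or 3 or E16 replicate 3) and from 1523 to 5204 (without E18 replicate 1, with 3011 without E16 replicate 1 and 2469 without E18 replicate 3). Without E18 replicates 2 and 3 the last was 5970, with or without E15 replicate 3. Without those 3 arrays the first was 2038 and the second 2753. Without the third with the lowest mean the first was 481 and the last 733, fewer transcripts being counted, and with cyclic loess the last was 2578.

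Replicate numbers are shared between stages, but nothing ties samples of one number together, and deviations of same-numbered arrays correlated between -0.62 and 0.68, with 3 of 18 pairs over 0.1. With the replicate number as a block the count from E15 to E16 was 6 and that from E16 to E18 was 15, and the steps are the same by design.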
